A study of Gallus gallus with 8 samples.

Results

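Collagens, laminins and integrins were picked out by gene name: 69 of 17329 rows of the count table matched the naming pattern for collagen alpha chains, laminin chains or integrin subunits that carry a number. Of these, 37 are collagen chains, 12 are laminin chains and 15 are integrin subunits. The other 5 rows share only a name with the families and are kept apart below: the ceramide carrier COL4A3BP, the integrin tail binders ITGB1BP1 and ITGB1BP2, the nicotinamide riboside kinase ITGB1BP3 and the centromere protein ITGB3BP. Integrin subunits named by a letter lie outside the pattern, so ITGAV, the alpha partner of several beta subunits, is given only beside them. No row carried the name COL1A1, ITGA3, ITGA5 or ITGA7, so the families and their sums are not complete.

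Messenger RNA was sequenced from chick embryo ectoderm in 8 libraries, 1 per group. At HH4 (Hamburger and Hamilton stage 4) a Hensen's node, the organiser of the embryo, was grafted into the area opaca, the extraembryonic rim of the blastoderm. The epiblast touching the graft was taken 5 hours later, and ungrafted area opaca came from the other side of the same embryos. Pre-streak embryos (EGKXII/XIII) gave anterior and central epiblast. Embryos at HH6/7 gave the neural plate, both ends of the preplacodal region, from which cranial sense organs and ganglia arise, and head ectoderm outside the neural and placodal fields, called non-neural ectoderm here. The labels name no genetic change, strain, age in hours or number of pooled embryos. By the labels, 1 laboratory made both preplacodal libraries and the non-neural ectoderm library and another made the other 5. Wherever libraries of different laboratories are set side by side, as for the neural plate and non-neural ectoderm, tissue and laboratory cannot be told apart. The column names of the area opaca pair lack the library codes that all other libraries carry, and whether this marks a separate set is not stated. Where the area opaca is set beside other tissue, tissue and such a set cannot be told apart either.

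Collagens are trimers wound into a triple helix; fibrillar types build fibres, type IV forms the sheet-like network of basement membranes, and fibril-associated types sit on the surface of fibres. Laminins are cross-shaped trimers of an alpha, a beta and a gamma chain that polymerise on the basal side of epithelia. Integrins are pairs of an alpha and a beta subunit that span the membrane and tie these matrices to the cytoskeleton, and the epiblast of the early chick rests on a basement membrane that is broken down where cells leave at the streak.

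Levels are in CPM, the counts of a gene divided by the total of its library and scaled alike in all libraries. Library totals ran from 13053810 to 138666339 counts, lowest in the area opaca pair, and 3 counts, the floor used for a gene without counts, correspond to 0.0216 to 0.230 CPM. With 1 library per group there is no replicate error and no test: the words higher and lower are kept for a CPM ratio of 2 or more with 5 CPM or more on the higher side, the rule of size below. Square brackets hold the exact 95% interval of a ratio, which covers counting error only. Sums of neural plate and surface ectoderm markers were highest in the matching library. The 9 neural plate genes summed to 862 CPM in the neural plate and to between 45.3 and 677 CPM elsewhere. The 10 surface ectoderm genes summed to 4128 CPM in non-neural ectoderm and to between 1085 and 3358 CPM elsewhere. Single genes went both ways. SOX2, ZIC2, HESX1 and RAX were highest in the neural plate, but SOX3, OTX2 and LHX5 were not. SOX1 and SIX3 were at 0 in all 8 libraries, where absence and rows that took no reads cannot be told apart. KRT14, GRHL3 and GATA2 were highest in non-neural ectoderm, but KRT18, KRT19, GATA3, TFAP2A, DLX5, EPCAM and CDH1 were not. In bulk tissue, fewer cells of a type and less RNA per cell cannot be told apart.

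Of the 64 subunits, 57 reached 1 CPM in at least 1 library, 45 reached 5 CPM, 17 reached 100 CPM and 9 reached 500 CPM. At least 5 CPM in every library was found for 21: 10 collagens, 4 laminins and 7 integrins. Summed over all 64 subunits, the level was 3364 CPM in the anterior and 3768 CPM in the central pre-streak epiblast, 4861 CPM in node-grafted and 5912 CPM in ungrafted area opaca, and 5926 CPM in the neural plate, 6691 CPM in the anterior and 6656 CPM in the posterior preplacodal region and 7869 CPM in non-neural ectoderm. The families did not all follow the same order. The summed laminin level was lowest in the anterior pre-streak epiblast (1214 CPM) and highest in non-neural ectoderm (3593 CPM). The summed collagen level was lowest in the central pre-streak epiblast (1198 CPM) and highest in non-neural ectoderm (3218 CPM). The summed integrin level was also lowest in the central pre-streak epiblast (744 CPM, close to 775 CPM in the anterior one) and highest in the anterior preplacodal region (1282 CPM). Among the 45 subunits reaching 5 CPM, 11 were highest in the neural plate and 11 in non-neural ectoderm, and 14 were lowest in the anterior pre-streak epiblast. These counts were not made over all genes, so they cannot be read as a trait of the families.

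**Figure D1:**
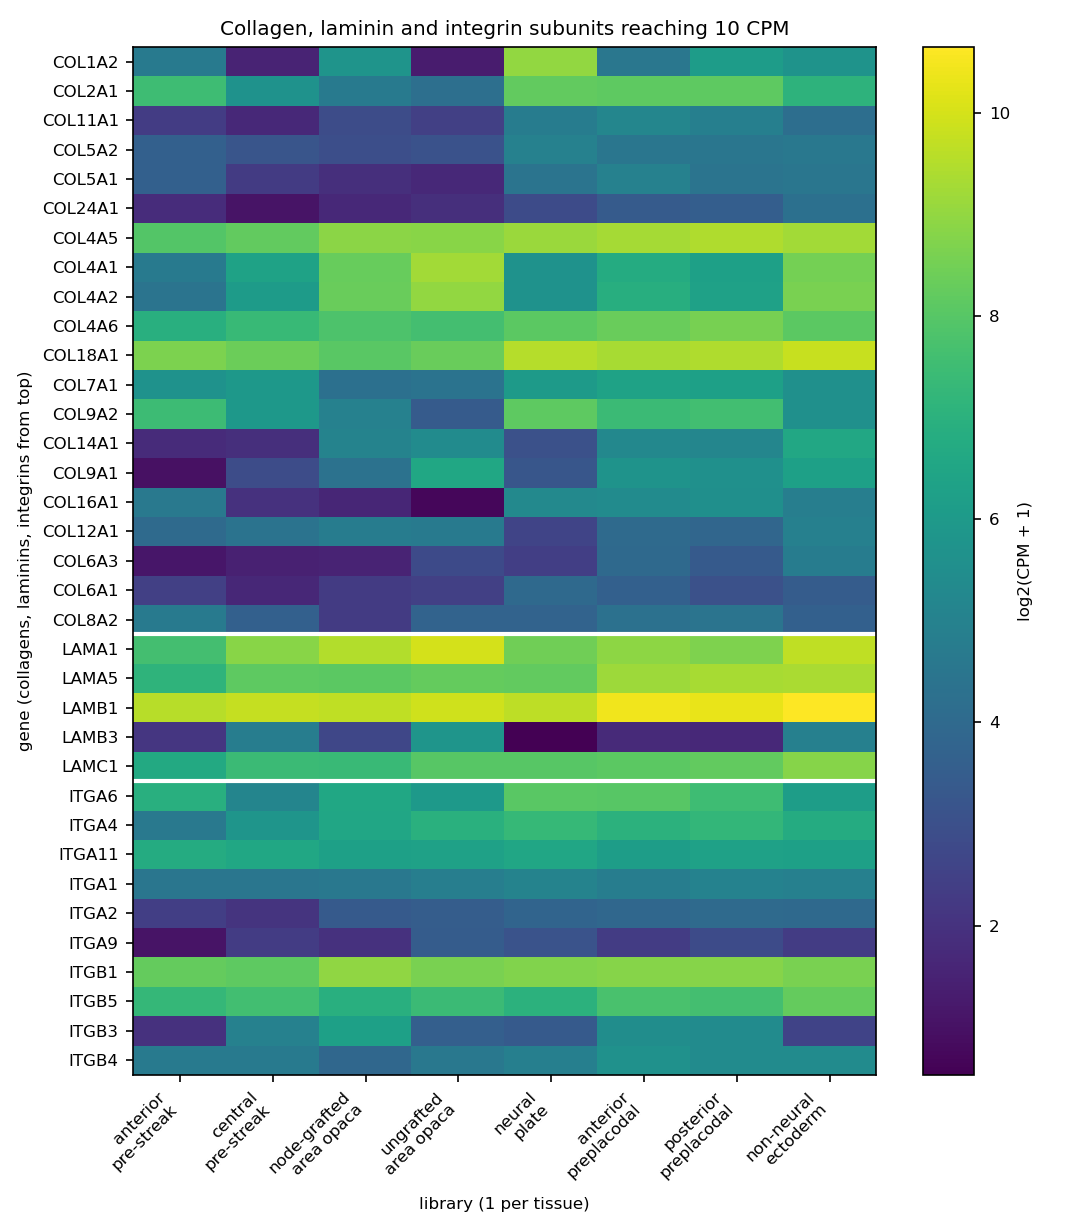
Level of collagen, laminin and integrin subunits that reached 10 CPM (rows, collagens above laminins above integrins) in the 8 libraries (columns, 1 per tissue), coloured by log2(CPM + 1). COL4A5, COL18A1, LAMB1 and ITGB1 are high in every library, whereas COL1A2 ranges from dark to bright and COL4A1, COL4A2, COL9A1 and LAMB3 also differ widely between libraries.

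Type IV collagen came as 2 gene pairs that behaved differently. COL4A1 (ENSGALG00000016841), a chain of the common collagen IV network, stood at 24.9 CPM in the anterior and 80.9 CPM in the central pre-streak epiblast, at 312 CPM in node-grafted and 605 CPM in ungrafted area opaca, and at 50.4 CPM in the neural plate, 107 CPM in the anterior and 75.8 CPM in the posterior preplacodal region and 367 CPM in non-neural ectoderm. Its partner COL4A2 (ENSGALG00000016843) stood at 20.2 CPM in the anterior and 66.4 CPM in the central pre-streak epiblast, at 322 CPM in node-grafted and 516 CPM in ungrafted area opaca, and at 50.9 CPM in the neural plate, 115 CPM in the anterior and 79.2 CPM in the posterior preplacodal region and 394 CPM in non-neural ectoderm. Both chains were thus high in the area opaca and in non-neural ectoderm and low in the anterior pre-streak epiblast and the neural plate, with a 24.3-fold range for COL4A1 and a 25.6-fold range for COL4A2. COL4A5 (ENSGALG00000008141) and COL4A6 (ENSGALG00000008266), the chains of another collagen IV network, ranged only 2.81-fold, between 245 CPM in the anterior pre-streak epiblast and 689 CPM in the posterior preplacodal region, and 3.21-fold, between 119 and 381 CPM in the same libraries. COL4A3 and COL4A4, whose trimer is known from kidney and lung, stayed at or under 5.79 and 4.99 CPM.

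In the chicken gene table of RefSeq (assembly GRCg7b), COL4A1 lies next to COL4A2, COL4A5 next to COL4A6 and COL4A4 next to COL4A3. The spans of COL4A1 and COL4A2, of COL4A4 and COL4A3 and of COL9A1 and COL19A1 overlap in that table, and how the authors' counting treated reads in such stretches is unknown. Within a library, the count ratio of COL4A1 to COL4A2 stayed between 0.931 and 1.23 and that of COL4A5 to COL4A6 between 1.81 and 2.34, so that these pairs each varied little in proportion over the 8 tissues. The ratio of COL4A3 to COL4A4 ran more widely, from 0.652 to 2.13. The ratio of COL4A1 to COL4A5, which no scaling between libraries can alter, was 0.102 [0.0974, 0.106] in the anterior and 0.269 [0.262, 0.276] in the central pre-streak epiblast. The COL4A1 to COL4A5 ratio was 0.665 [0.639, 0.692] in node-grafted and 1.31 [1.27, 1.35] in ungrafted area opaca. At HH6/7 the neural plate had a COL4A1 to COL4A5 ratio of 0.0907 [0.0882, 0.0932], the anterior preplacodal region one of 0.173 [0.169, 0.176], the posterior preplacodal region one of 0.110 [0.108, 0.112] and non-neural ectoderm one of 0.602 [0.592, 0.612]. Per length of transcript, in the authors' FPKM (fragments per kilobase of transcript, scaled to library size), COL4A1 was at 81.9 and COL4A5 at 59.2 FPKM in ungrafted area opaca. In the neural plate the same unit gave 6.52 FPKM for COL4A1 and 67.8 FPKM for COL4A5.

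Other neighbours did not keep a proportion. COL6A1 stood at between 1.45 and 19.9 times the COL6A2 count. LAMB4 stayed at or under 1.13 CPM beside LAMB1, which reached 1604 CPM, COL3A1 at or under 2.20 CPM beside COL5A2, which reached 30.5 CPM, and COL19A1 at or under 1.67 CPM beside COL9A1, which reached 93.8 CPM.

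COL18A1 (ENSGALG00000004338), the basement membrane proteoglycan whose end fragment is endostatin, was the collagen with the highest level in any library. COL18A1 stood at 401 CPM in the anterior and 330.2 CPM in the central pre-streak epiblast, at 266 CPM in node-grafted and 325 CPM in ungrafted area opaca, and at 737 CPM in the neural plate, 642 CPM in the anterior and 687 CPM in the posterior preplacodal region and 889.9 CPM in non-neural ectoderm. All 4 HH6/7 libraries lay above all 4 earlier ones. COL7A1, the anchoring fibril collagen of skin, was lowest in the area opaca pair (18.0 CPM grafted and 20.2 CPM ungrafted) and between 47.4 and 80.5 CPM elsewhere. COL15A1, the other member of the COL18A1 type, never passed 0.536 CPM.

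**Figure D2:**
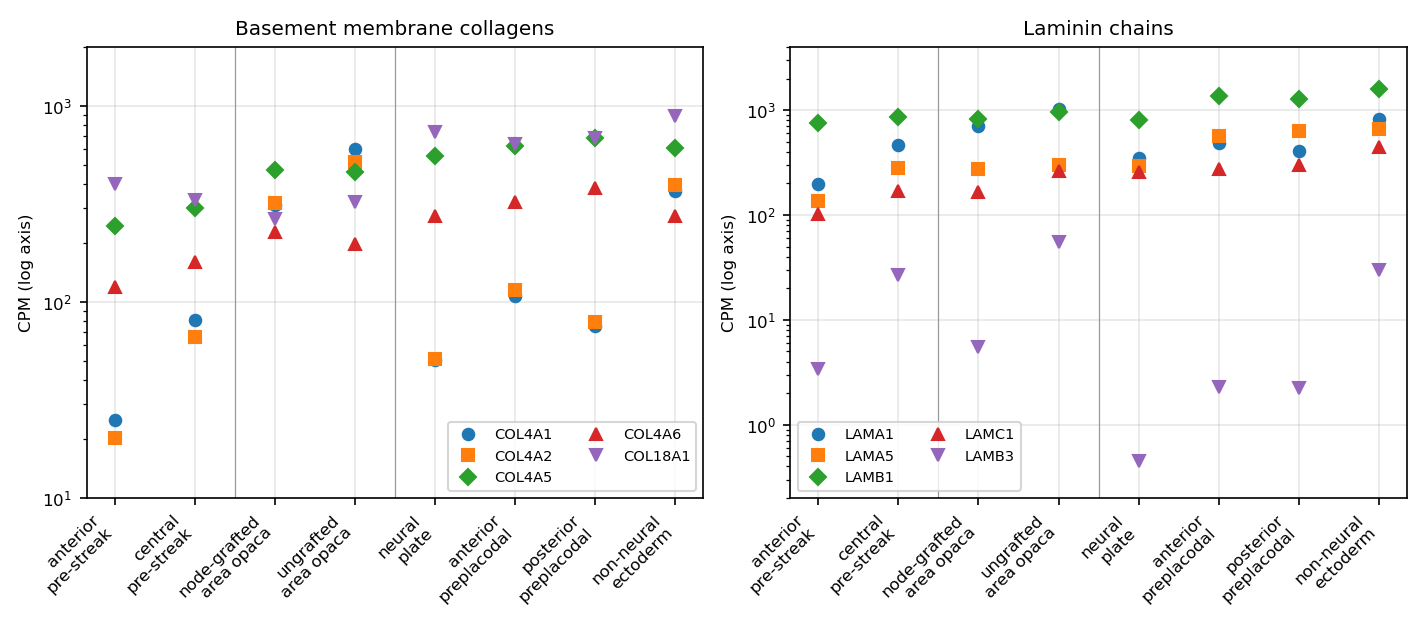
CPM on a log axis of basement membrane collagens (left) and laminin chains (right) in the 8 libraries, 1 point per gene and library, with vertical lines between stages. COL4A1 and COL4A2 lie close together in every library, at 50.4 and 50.9 CPM in the neural plate, while COL4A5 and COL4A6 stay at 119 CPM or more, and LAMB3 is the laminin chain drawn with the widest range, between 0.446 and 55.5 CPM.

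Among fibrillar collagens, COL1A2 (ENSGALG00000009641), a chain of type I collagen, had the widest range of any member with 10 CPM, 356-fold. COL1A2 stood at 24.8 CPM in the anterior and 1.89 CPM in the central pre-streak epiblast, at 53.9 CPM in node-grafted and 1.44 CPM in ungrafted area opaca, and at 513 CPM in the neural plate, 22.2 CPM in the anterior and 68.9 CPM in the posterior preplacodal region and 52.4 CPM in non-neural ectoderm. The neural plate stood apart from every other library, while COL3A1, another mesenchymal fibrillar collagen, was at 1.54 CPM there. Of 12 listed mesoderm and mesenchyme markers, the sum was 20.5 CPM in the neural plate against between 11.7 and 186 CPM in the other libraries, and 3 reached 1 CPM there, namely SNAI2 at 12.7 CPM, PDGFRA at 3.80 CPM and MEOX1 at 1.43 CPM. SNAI2 and MEOX1 were above these values only in the posterior preplacodal region, at 13.9 CPM for SNAI2 and 2.08 CPM for MEOX1. TWIST1 was at most 0.274 CPM, and FOXC1 and HAND2 were at 0, in all 8 libraries. For FOXC1 and HAND2, absence and rows that took no reads cannot be told apart. The part of the mesoderm and mesenchyme markers in the COL1A2 level was not tested.

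COL2A1 (ENSGALG00000013587), the type II collagen of cartilage and notochord, stood at 181 CPM in the anterior and 50.01 CPM in the central pre-streak epiblast, at 24.1 CPM in node-grafted and 17.8 CPM in ungrafted area opaca, and at 296 CPM in the neural plate, 282 CPM in the anterior and 278 CPM in the posterior preplacodal region and 132 CPM in non-neural ectoderm. The area opaca pair was lowest and the 3 neural and placodal libraries were highest, close to one another. COL11A1, COL5A1, COL5A2 and COL24A1, minor fibril chains, all lay above their area opaca values in each HH6/7 library. There COL11A1 was between 17.0 and 34.7 CPM, COL5A1 between 20.2 and 30.4 CPM, COL5A2 between 21.6 and 30.5 CPM and COL24A1 between 6.13 and 18.4 CPM.

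Type IX collagen, which coats type II fibrils, showed chains that ran against each other. COL9A2 (ENSGALG00000027526) stood at 178 CPM in the anterior and 59.6 CPM in the central pre-streak epiblast, at 30.2 CPM in node-grafted and 9.88 CPM in ungrafted area opaca, and at 278 CPM in the neural plate, 172 CPM in the anterior and 193 CPM in the posterior preplacodal region and 47.8 CPM in non-neural ectoderm. COL9A1 (ENSGALG00000015970) stood at 0.963 CPM in the anterior and 6.41 CPM in the central pre-streak epiblast, at 19.3 CPM in node-grafted and 93.8 CPM in ungrafted area opaca, and at 8.52 CPM in the neural plate, 52.7 CPM in the anterior and 48.4 CPM in the posterior preplacodal region and 77.4 CPM in non-neural ectoderm. The count ratio of COL9A1 to COL9A2 within a library ran from 0.00540 in the anterior pre-streak epiblast to 9.49 in ungrafted area opaca, a 1759-fold spread, while COL9A3 stayed between 3.42 and 6.31 CPM in all 8.

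Of the other fibril-associated types, COL14A1 was between 2.40 and 7.35 CPM in both pre-streak libraries and the neural plate, and between 31.9 and 95.5 CPM in the other 5, highest in non-neural ectoderm. COL16A1 was at 23.7 CPM in the anterior and 2.94 CPM in the central pre-streak epiblast, at 2.07 CPM in node-grafted and 0.618 CPM in ungrafted area opaca and at 27.8 to 46.5 CPM at HH6/7. COL12A1 was lowest in the neural plate (5.14 CPM) and highest in non-neural ectoderm (29.5 CPM). Of the beaded filament collagens, COL6A3 was highest in non-neural ectoderm (26.3 CPM) and COL6A1 in the neural plate (14.7 CPM), and of the short-chain ones COL8A2 ranged from 3.83 CPM in node-grafted area opaca to 24.6 CPM in the anterior pre-streak epiblast.

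Most laminin counts fell on 4 chains, LAMB1, LAMA1, LAMA5 and LAMC1. LAMB1 (ENSGALG00000007905), the common beta chain, stood at 759 CPM in the anterior and 865 CPM in the central pre-streak epiblast, at 821 CPM in node-grafted and 954 CPM in ungrafted area opaca, and at 805 CPM in the neural plate, 1374 CPM in the anterior and 1270.4 CPM in the posterior preplacodal region and 1604 CPM in non-neural ectoderm. Its preplacodal and non-neural ectoderm values, all from the same laboratory, lay above all others, so tissue and laboratory cannot be told apart there either. LAMC1 (ENSGALG00000004620), the gamma partner of LAMB1, was at 102 CPM in the anterior and 169.9 CPM in the central pre-streak epiblast, at 167 CPM in node-grafted and 259.9 CPM in ungrafted area opaca, and at 256 CPM in the neural plate, 273 CPM in the anterior and 297 CPM in the posterior preplacodal region and 444 CPM in non-neural ectoderm. Per length, LAMB1 lay 2.01 to 4.71 times above LAMC1 in FPKM and above both alpha chains in every library.

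The alpha chains set the type of laminin. LAMA1 (ENSGALG00000014615), the alpha chain of early embryonic basement membranes, was at 199 CPM in the anterior and 463 CPM in the central pre-streak epiblast, at 706 CPM in node-grafted and 1023 CPM in ungrafted area opaca, and at 347 CPM in the neural plate, 483 CPM in the anterior and 411 CPM in the posterior preplacodal region and 828 CPM in non-neural ectoderm. LAMA5 (ENSGALG00000005321), the widespread later alpha chain, was at 137 CPM in the anterior and 282 CPM in the central pre-streak epiblast, at 275 CPM in node-grafted and 302 CPM in ungrafted area opaca, and at 296 CPM in the neural plate, 569 CPM in the anterior and 637 CPM in the posterior preplacodal region and 662 CPM in non-neural ectoderm. The LAMA5 values of the preplacodal regions and non-neural ectoderm, all from the same laboratory, lay above all others, so tissue and laboratory cannot be told apart there. The count ratio of LAMA1 to LAMA5 within a library was highest in ungrafted area opaca (3.39) and in node-grafted area opaca (2.57), between 1.17 and 1.65 in both pre-streak libraries, the neural plate and non-neural ectoderm, and lowest in the preplacodal region, at 0.849 anteriorly and 0.646 posteriorly. LAMA2, LAMA3 and LAMA4 reached at most 1.63, 3.41 and 0.851 CPM.

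LAMB3 (ENSGALG00000001343) is the beta chain of the laminin that anchors the epidermis, and LAMA3 is its alpha chain. LAMB3 stood at 3.40 CPM in the anterior and 27.1 CPM in the central pre-streak epiblast, at 5.52 CPM in node-grafted and 55.5 CPM in ungrafted area opaca, and at 0.446 CPM in the neural plate, 2.31 CPM in the anterior and 2.24 CPM in the posterior preplacodal region and 29.7 CPM in non-neural ectoderm. The 3 libraries above 20 CPM were the central pre-streak epiblast, ungrafted area opaca and non-neural ectoderm. LAMB2 and LAMC3 were at most 6.12 and 4.53 CPM, and LAMC3 had no count in node-grafted and 3 counts in ungrafted area opaca.

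Integrin beta subunits were led by ITGB1 (ENSGALG00000007145), the partner of most matrix receptors, which varied little: 309 CPM in the anterior and 281 CPM in the central pre-streak epiblast, 500.2 CPM in node-grafted and 385 CPM in ungrafted area opaca, and 426 CPM in the neural plate, 452 CPM in the anterior and 444 CPM in the posterior preplacodal region and 387 CPM in non-neural ectoderm. ITGB5 (ENSGALG00000011778), a partner of the alpha V subunit, ranged from 119 CPM in node-grafted area opaca to 304 CPM in non-neural ectoderm. ITGB3 (ENSGALG00000000379), another alpha V partner, stood at 2.94 CPM in the anterior and 30.4 CPM in the central pre-streak epiblast, at 76.3 CPM in node-grafted and 10.98 CPM in ungrafted area opaca, and at 9.64 CPM in the neural plate, 43.5 CPM in the anterior and 41.0 CPM in the posterior preplacodal region and 4.89 CPM in non-neural ectoderm. It was high in grafted tissue, in both preplacodal regions and in the central pre-streak epiblast, and low in the neural plate and in non-neural ectoderm alike. ITGAV itself was at 6.48 CPM in the anterior and 12.6 CPM in the central pre-streak epiblast, at 51.2 CPM in node-grafted and 29.8 CPM in ungrafted area opaca and at 14.5 to 19.2 CPM at HH6/7.

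ITGB4, which pairs with the ITGA6 product at hemidesmosomes, was between 14.1 CPM in node-grafted area opaca and 49.2 CPM in the anterior preplacodal region. In FPKM it was only between 0.110 and 1.12 in the same libraries, and why it is so low per length is unknown. The neural plate and non-neural ectoderm had 29.1 and 41.1 CPM of ITGB4 but 0.254 and 1.02 FPKM, so its pattern depends on the unit. ITGB8, an alpha V partner, was between 0.919 and 2.81 CPM in the 4 earlier libraries and between 6.37 and 8.19 CPM in the 4 HH6/7 ones. ITGB2, the beta subunit of leukocytes, was highest in non-neural ectoderm (9.53 CPM), where 10 blood and endothelial markers summed to 73.6 CPM against between 2.74 and 8.78 CPM in the other libraries. Their part in the ITGB2 level was not tested.

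ITGA6 (ENSGALG00000009362), a laminin-binding alpha subunit, varied most among the abundant alpha subunits: 121 CPM in the anterior and 34.2 CPM in the central pre-streak epiblast, 93.1 CPM in node-grafted and 63.9 CPM in ungrafted area opaca, and 269 CPM in the neural plate, 256 CPM in the anterior and 179 CPM in the posterior preplacodal region and 70.0 CPM in non-neural ectoderm. Set against ITGB1 within a library, ITGA6 had a count ratio of 0.631 in the neural plate, of 0.567 anteriorly and 0.403 posteriorly in the preplacodal region, of 0.391 in the anterior pre-streak epiblast, and between 0.122 and 0.186 in the other 4 libraries. ITGA4 (ENSGALG00000008978), a fibronectin receptor subunit, was at 23.6 CPM in the anterior and 54.3 CPM in the central pre-streak epiblast, at 90.0 CPM in node-grafted and 123 CPM in ungrafted area opaca, and at 159 CPM in the neural plate, 131 CPM in the anterior and 150.4 CPM in the posterior preplacodal region and 107 CPM in non-neural ectoderm. Levels of the collagen-binding ITGA11 and ITGA1 moved least, between 70.9 and 106 CPM and between 21.6 and 32.7 CPM. ITGA2, also collagen-binding, was at 4.24 CPM in the anterior and 3.21 CPM in the central pre-streak epiblast and between 9.499 and 15.3 CPM elsewhere, ITGA9, a tenascin receptor subunit, at 1.09 to 10.1 CPM and ITGA8, a nephronectin receptor subunit, at 0.659 to 6.33 CPM.

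**Figure D3:**
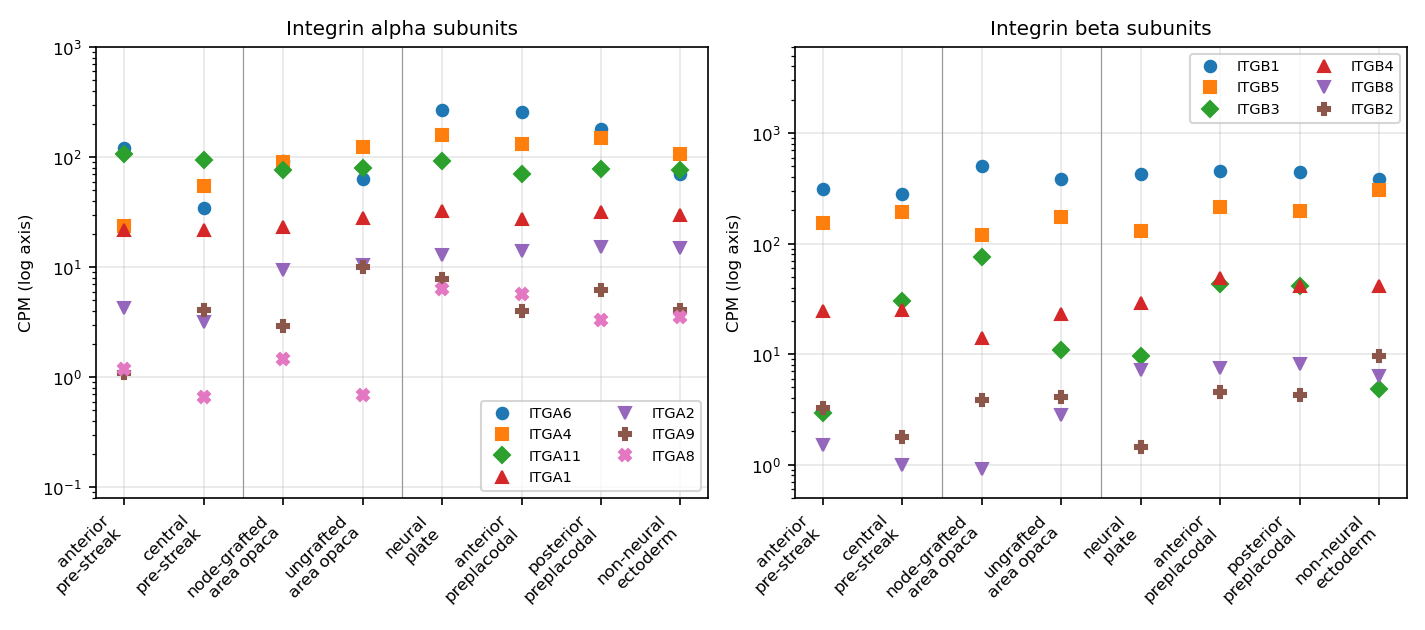
CPM on a log axis of integrin alpha subunits (left) and beta subunits (right) in the 8 libraries, 1 point per gene and library, with vertical lines between stages. ITGB1 and ITGA11 lie nearly level across tissues, while ITGA6 reaches 269 CPM in the neural plate and ITGB3 swings between 2.94 and 76.3 CPM.

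**Figure D4:**
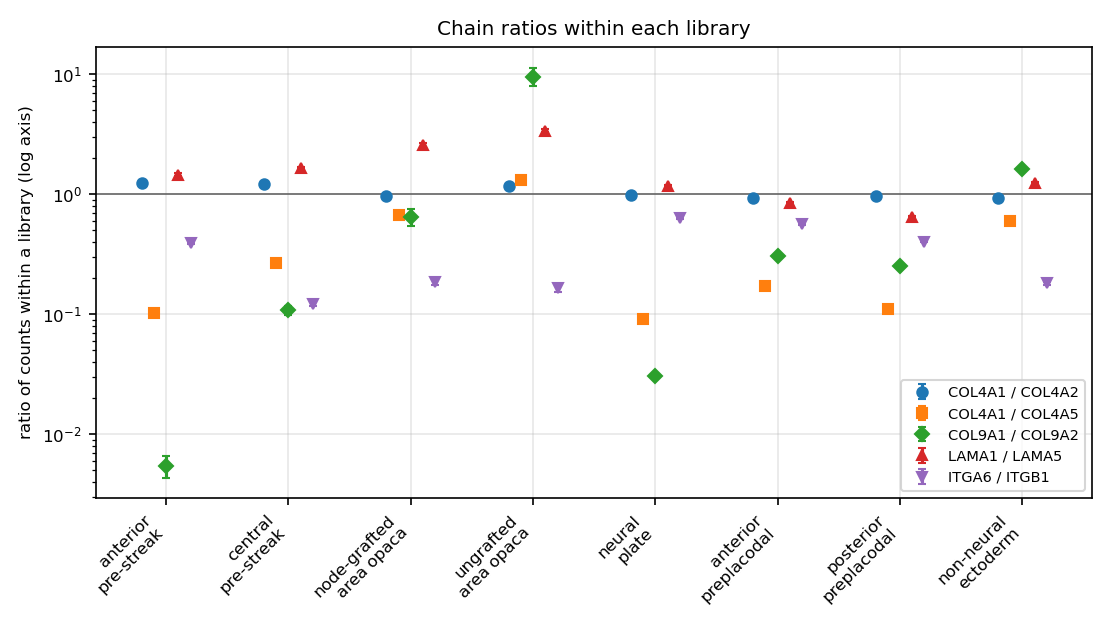
Ratio of the counts of paired chains within each library on a log axis, with exact 95% counting intervals, where the horizontal line marks equal counts. The COL4A1 to COL4A2 ratio stays close to 1 in all 8 libraries, and the COL9A1 to COL9A2 ratio runs from 0.00540 in the anterior pre-streak epiblast to 9.49 in ungrafted area opaca.

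The first comparison asked what contact with a node does to matrix genes of the area opaca. On the grafted side COL1A2, ITGB3 and COL9A2 were higher and LAMB3, COL9A1, ITGA9, COL8A2 and COL6A3 lower, while COL4A1, COL4A2, LAMA1, LAMB1 and LAMC1 did not pass the rule. Of the 69 members, 36 reached 5 CPM on either side and were measured; a member present on 1 side alone enters only through that side. Of these 4 were higher, the fourth being ITGB3BP, where 7.56% of 9437 measured genes were, and 5 were lower, where 8.57% of all genes were. The median log2 ratio was -0.18 over the measured members and 0.02 over all measured genes. COL1A2 was 37.4-fold higher [24.3, 60.8], from 703 grafted and 21 ungrafted counts, ITGB3 6.95-fold [5.88, 8.26] and COL9A2 3.05-fold [2.52, 3.72]. LAMB3 was 10.1-fold lower [7.90, 12.99] on the grafted side, COL9A1 4.86-fold [4.24, 5.58], ITGA9 3.46-fold [2.41, 5.09], COL8A2 3.26-fold [2.37, 4.55] and COL6A3 3.15-fold [2.003, 5.13]. The COL6A3 call was lost in FPKM, with a log2 ratio of -0.79 at a pseudocount of 0.1 and -0.32 at a pseudocount of 1. In the same unit ITGB3BP stood at a log2 ratio of 0.98 with a pseudocount of 0.1 and ITGA9 at -0.93 with a pseudocount of 1, both short of the rule. COL4A1, just short of the rule, had a log2 ratio of -0.96, COL4A2 -0.68, LAMC1 -0.64, LAMA1 -0.54, ITGA6 0.54 and ITGB1 0.38.

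Marker sums differed between the sides as well. On the grafted side 11 markers of endoderm, hypoblast and yolk summed to 19.5 CPM, against 85.4 CPM on the ungrafted side, and 8 markers of node and notochord to 64.9 CPM on the grafted side, against 7.00 CPM on the ungrafted side. In the endoderm list RBP4 (5.44 CPM grafted against 31.6 CPM ungrafted) and APOA1 (5.98 CPM grafted against 20.7 CPM ungrafted) differed most in CPM. FOXA2, which is in both lists (4.67 CPM grafted against 1.72 CPM ungrafted), HHEX and CER1 went the other way. Of the node genes, GNOT1 stood at 26.2 CPM grafted against 4.80 CPM ungrafted, T at 24.8 CPM grafted against 0.206 CPM ungrafted and CHRD at 8.04 CPM grafted against 0 ungrafted, while SHH was at most 0.461 CPM in any library. Their part in these ratios was not tested.

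Other matrix and adhesion genes were described from lists. Of 23 measured matrix partners, genes whose products bind or link the members' proteins, 4 were higher on the grafted side and 8 lower (median log2 ratio -0.30). That is 17.4% higher and 34.8% lower, where 7.56% of all measured genes were higher and 8.57% lower. Of the collagen-making genes below 11.1% were lower, near the share over all genes. The proteoglycan VCAN stood at 458 CPM grafted against 109 CPM ungrafted and the basement membrane linker NID2 at 147 CPM grafted against 55.5 CPM ungrafted, both higher. The microfibril gene FBN2 was lower, at 45.4 CPM grafted against 279 CPM ungrafted, as was the matricellular gene THBS1, at 77.7 CPM grafted against 472 CPM ungrafted. NID1, the sister gene of NID2, named here after its values were seen, was lower, at 48.3 CPM grafted against 125 CPM ungrafted. Of 18 genes for making and crosslinking collagen none was higher and 2 were lower, among them the crosslinking enzyme LOX (1.07 CPM grafted against 13.6 CPM ungrafted). Of 8 genes of matrix breakdown 2 were higher, the membrane protease MMP17 (19.5 CPM grafted against 3.29 CPM ungrafted) and the inhibitor TIMP2, and the protease ADAMTS9 was lower (34.2 CPM grafted against 104 CPM ungrafted). Of 25 genes of the integrin adhesion complex 1 was higher, the kinase SRC (35.5 CPM grafted against 16.3 CPM ungrafted), and 1 lower, the adaptor DAB2 (0.383 CPM grafted against 10.1 CPM ungrafted).

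**Figure D5:**
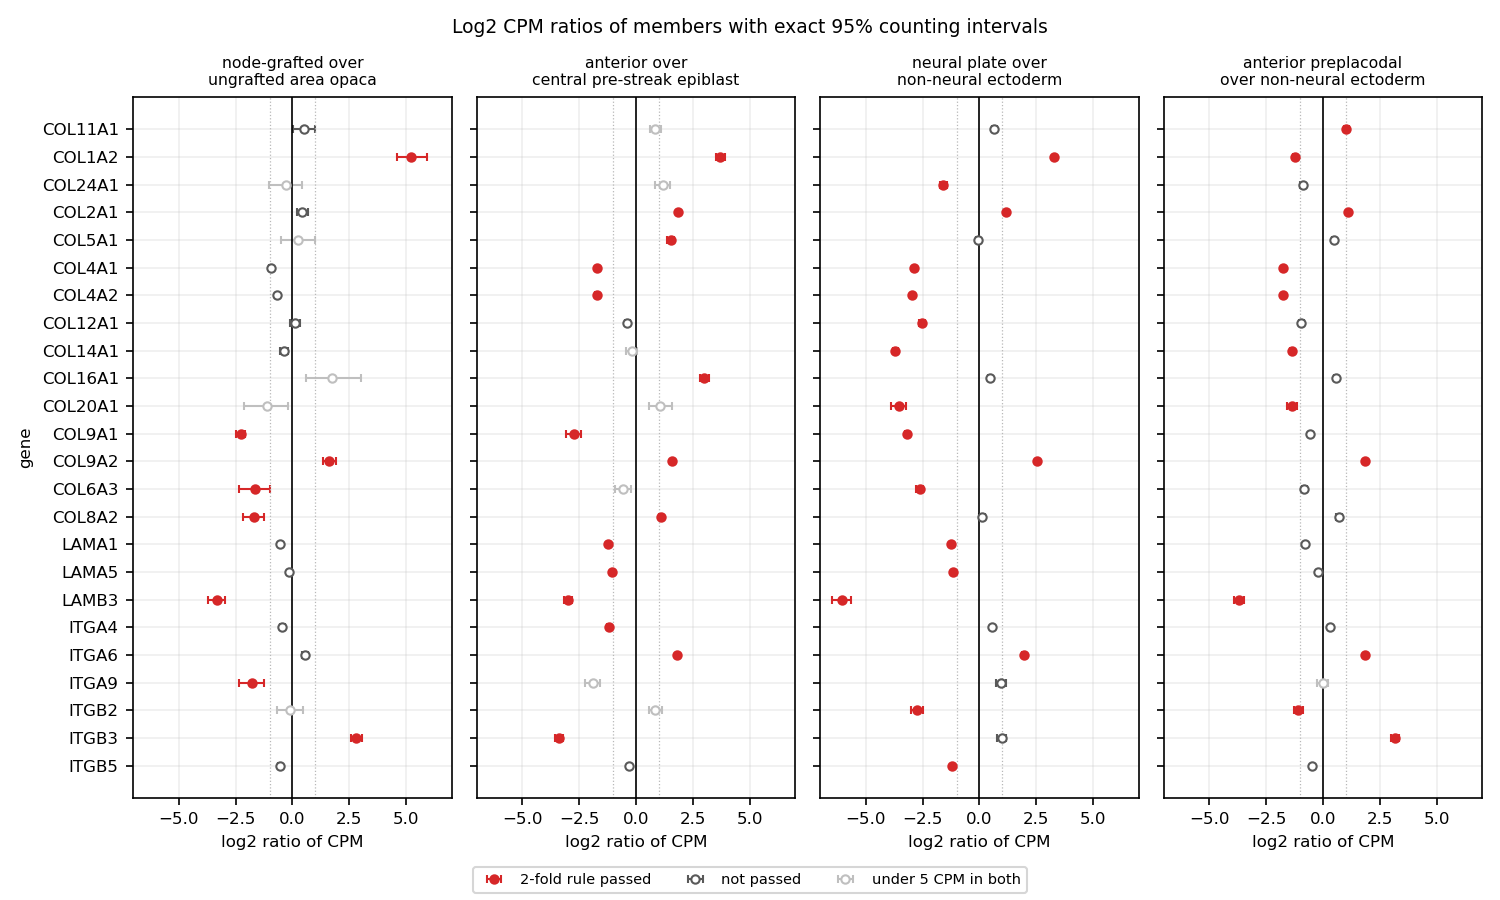
Log2 CPM ratios (x axes) of subunits called in at least 1 of the 4 comparisons shown, with exact 95% counting intervals; dotted lines mark a ratio of 2 in either direction, filled points passed the rule of size and pale points were under 5 CPM in both libraries. LAMB3 lies far left in all 4 panels and COL9A2 to the right in all 4, whereas ITGB3 changes side.

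Within the pre-streak epiblast the anterior region had more of the fibrillar and fibril-associated genes COL1A2, COL16A1, COL2A1, COL9A2 and COL5A1, of COL8A2 and of ITGA6, and less of ITGB3, LAMB3, COL9A1, COL4A1, COL4A2, LAMA1, LAMA5 and ITGA4. Of 35 measured members 7 were higher anteriorly, where 6.09% of 9312 genes were, and 9 were lower, the ninth being COL4A3BP, where 4.71% of all genes were. The median log2 ratio was -0.29 over these members and 0.00 over all genes. COL1A2 was 13.1-fold higher [11.3, 15.3], COL16A1 8.08-fold [7.16, 9.15], COL2A1 3.61-fold [3.499, 3.73], ITGA6 3.52-fold [3.39, 3.66], COL9A2 2.99-fold [2.91, 3.08], COL5A1 2.88-fold [2.57, 3.24] and COL8A2 2.14-fold [1.99, 2.29]. ITGB3 was 10.3-fold lower [9.17, 11.7], LAMB3 7.96-fold [7.11, 8.94], COL9A1 6.66-fold [5.37, 8.34], COL4A2 3.29-fold [3.13, 3.46] and COL4A1 3.25-fold [3.10, 3.40]. The laminin alpha chain LAMA1 was 2.33-fold lower [2.29, 2.37], LAMA5 2.06-fold [2.02, 2.10] and ITGA4 2.30-fold [2.19, 2.41]. LAMC1, COL4A6, COL4A5 and LAMB1 did not pass, LAMC1 at a log2 ratio of -0.74, COL4A6 at -0.43, COL4A5 at -0.29 and LAMB1 at -0.19. In FPKM with a pseudocount of 1, COL5A1 (log2 0.76) and COL4A3BP (log2 -0.98) no longer passed.

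Node and notochord markers summed to 255 CPM in the anterior and 53.7 CPM in the central pre-streak epiblast, mesoderm markers to 186 CPM in the anterior and 79.5 CPM in the central one, and endoderm, hypoblast and yolk markers to 52.1 CPM in the anterior and 99.5 CPM in the central one. The mesoderm sum was mostly TBX6 (174 CPM anteriorly and 59.2 CPM centrally). SNAI2 (7.70 CPM anteriorly and 10.8 CPM centrally), PDGFRA and HAND1 were among the mesoderm markers that went the other way. The endoderm difference lay mostly in RBP4 (5.78 CPM anteriorly and 58.8 CPM centrally), while APOA1, FOXA2 and HHEX stood above their central values anteriorly. The part of these cell types in the ratios was not tested. Of 22 matrix partners 5 were higher and 3 lower anteriorly (median log2 ratio 0.22): NID2 (217 CPM in the anterior against 77.2 CPM in the central epiblast), the tenascin TNC and perlecan HSPG2 were higher and THBS1 (44.6 CPM in the anterior against 159 CPM in the central epiblast), FREM2 and FBN2 lower. That is 22.7% higher and 13.6% lower, where 6.09% of all measured genes were higher and 4.71% lower. Among collagen-processing genes LOXL3 and LOXL1 were higher and PXDN, a peroxidase that crosslinks collagen IV, was lower (63.1 CPM in the anterior against 151 CPM in the central epiblast), out of 18 measured. Of 7 measured genes of matrix breakdown the protease MMP11 was higher and ADAMTS9 lower. Of 23 adhesion complex genes, none was higher and the talin TLN2 (63.8 CPM in the anterior against 184 CPM in the central epiblast) and the parvin PARVB were lower.

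At HH6/7, the neural plate had more COL1A2, COL9A2, ITGA6 and COL2A1 than non-neural ectoderm, and less COL4A1 and COL4A2, less of the laminin chains LAMB3, LAMA1 and LAMA5, and less of the fibril-associated COL14A1, COL20A1, COL9A1 and COL12A1. Of 47 measured members 4 were higher, where 9.18% of 10206 genes were, and 15 were lower, where 13.1% of all genes were. By family, 3 of 23 measured collagens were higher and 8 lower, 0 of 7 laminins higher and 4 lower, and 1 of 13 integrins higher and 2 lower; the 15th lower member was COL4A3BP. The median log2 ratio was 0.00 over the members and 0.04 over all genes, with -1.16 for the laminins. COL1A2 was 9.79-fold higher [9.44, 10.2], COL9A2 5.82-fold [5.60, 6.05], ITGA6 3.84-fold [3.72, 3.97] and COL2A1 2.24-fold [2.18, 2.29].

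LAMB3 was 66.5-fold lower [50.1, 90.3] in the neural plate, COL14A1 13.004-fold [12.1, 14.02], COL20A1 11.8-fold [9.31, 15.0], COL9A1 9.08-fold [8.46, 9.76], COL4A2 7.73-fold [7.504, 7.96] and COL4A1 7.29-fold [7.07, 7.51]. Also lower were ITGB2, COL6A3, COL12A1 and COL24A1, by 6.63-fold to 2.99-fold, LAMA1 by 2.39-fold, ITGB5 by 2.34-fold and LAMA5 by 2.24-fold. LAMB1, at a log2 ratio of -0.995, lay just outside the rule. COL24A1 no longer passed in FPKM with a pseudocount of 1 (log2 -0.74). In the same libraries, blood and endothelial markers summed to 8.68 CPM in the neural plate and 73.6 CPM in non-neural ectoderm, with the endothelial cadherin CDH5 at 0.0819 CPM in the neural plate and 8.31 CPM in non-neural ectoderm. Endoderm, hypoblast and yolk markers summed to 44.4 CPM in the neural plate and 171 CPM in non-neural ectoderm. That difference lay mostly in APOA1 (37.1 CPM in the neural plate and 100 CPM in non-neural ectoderm) and TTR (0.828 CPM in the neural plate and 34.3 CPM in non-neural ectoderm). Mesoderm markers summed to 20.5 CPM in the neural plate and 116 CPM in non-neural ectoderm, mostly through HAND1 at 80.8 CPM in non-neural ectoderm. SNAI2 (12.7 CPM in the neural plate and 10.9 CPM in non-neural ectoderm) and MEOX1 (1.43 CPM in the neural plate and 0.443 CPM in non-neural ectoderm) went the other way. The part of these marker lists in the ratios was not tested.

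Of 25 measured matrix partners 14 were lower in the neural plate and 1, NID2, was higher (median log2 ratio -1.05). That is 56.0% lower and 4.0% higher, where 13.1% of all measured genes were lower and 9.18% higher. Of the adhesion complex genes below 26.9% were lower, and of the collagen-processing genes 14.3%, near the share over all genes. FBN2 stood at 16.3 CPM in the neural plate against 750.03 CPM in non-neural ectoderm. TGFBI, an integrin-binding matrix protein, stood at 36.6 CPM in the neural plate against 470 CPM in non-neural ectoderm, and fibronectin FN1 at 1125 CPM in the neural plate against 5699 CPM in non-neural ectoderm. These 3 were lower. FN1 was at 6375 CPM in the anterior and 4713 CPM in the posterior preplacodal region, from the same laboratory as non-neural ectoderm. In the libraries of the other laboratory FN1 was at most 2619 CPM. For all genes of this pair, tissue and laboratory cannot be told apart. Of 26 adhesion complex genes 1 was higher, PARVB (467 CPM in the neural plate), and 7 were lower, led by the kinase PTK2B (4.52 CPM in the neural plate against 67.1 CPM in non-neural ectoderm), DAB2, the tensin TNS1 and the kindlin FERMT1. Collagen-processing genes gave 1 higher and 3 lower of 21, with LOX at 0 CPM in the neural plate against 8.33 CPM in non-neural ectoderm, and genes of matrix breakdown 2 higher and 2 lower of 10.

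Both preplacodal regions were set against the same non-neural ectoderm library, so their ratios share it. Each had more ITGB3, COL9A2, ITGA6 and COL2A1, and less LAMB3, COL4A1, COL4A2, COL14A1, COL20A1 and ITGB2, than non-neural ectoderm. In the anterior region 5 of 44 measured members were higher, where 6.73% of 10151 genes were, and 7 lower, where 7.22% were, with a median log2 ratio of -0.09 against 0.04 over all genes. In the posterior region 4 of 44 were higher, where 6.93% of 10137 genes were, and 9 lower, where 8.48% were, with a median of -0.02 against 0.05. ITGB3 was 8.89-fold higher [7.89, 10.1] in the anterior and 8.40-fold [7.46, 9.49] in the posterior region, ITGA6 3.66-fold [3.54, 3.79] in the anterior and 2.56-fold [2.47, 2.64] in the posterior region. COL9A2 was 3.60-fold higher [3.46, 3.75] anteriorly and 4.04-fold [3.89, 4.21] posteriorly, and COL2A1 2.13-fold [2.08, 2.19] anteriorly and 2.11-fold [2.05, 2.16] posteriorly. COL11A1, just inside, passed the rule only in the anterior region (2.04-fold [1.90, 2.19], log2 0.76 in the posterior one).

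LAMB3 was 12.9-fold lower [11.2, 14.9] in the anterior and 13.3-fold [11.8, 15.0] in the posterior region, COL4A1 3.42-fold [3.34, 3.501] anteriorly and 4.85-fold [4.74, 4.96] posteriorly, and COL4A2 3.41-fold [3.34, 3.49] anteriorly and 4.97-fold [4.86, 5.09] posteriorly. COL14A1 was 2.60-fold lower anteriorly and 2.70-fold posteriorly, COL20A1 2.56-fold anteriorly and 5.41-fold posteriorly and ITGB2 2.11-fold anteriorly and 2.22-fold posteriorly. COL1A2 was lower only anteriorly (2.36-fold [2.23, 2.49]), and COL6A3 (2.76-fold), COL12A1 (2.18-fold) and LAMA1 (2.01-fold) only posteriorly; whether the regions differ in these is read from the direct comparison below. With TMM scaling LAMA1 no longer passed posteriorly (log2 -0.97), and with DESeq2 size factors COL11A1 no longer passed anteriorly (log2 0.99). In FPKM with a pseudocount of 0.1, COL2A1 no longer passed in either region (log2 0.94 anteriorly and 0.96 posteriorly), nor did ITGB2 anteriorly (log2 -0.98) or LAMA1 posteriorly (log2 -0.98). With a pseudocount of 1, COL20A1 was also lost in both regions (log2 -0.63 anteriorly and -0.92 posteriorly). That pseudocount also lost COL11A1 (0.76) and COL1A2 (-0.98) anteriorly, and ITGB2 (-0.72), COL6A3 (-0.84) and COL12A1 (-0.70) posteriorly. LAMA5 passed in neither region, at a log2 ratio of -0.22 anteriorly and -0.06 posteriorly, and neither did LAMB1, at -0.22 anteriorly and -0.34 posteriorly. Marker sums of blood and endothelium were 5.19 CPM in the anterior and 7.56 CPM in the posterior region against 73.6 CPM in non-neural ectoderm. Those of endoderm, hypoblast and yolk were 42.7 CPM anteriorly and 22.8 CPM posteriorly against 171 CPM in non-neural ectoderm, though FOXA2 and CER1 went the other way in both regions. HHEX (5.83 CPM anteriorly against 4.15 CPM in non-neural ectoderm) and HNF4A did so only anteriorly. Mesoderm and mesenchyme markers summed to 45.2 CPM anteriorly and 37.6 CPM posteriorly against 116 CPM in non-neural ectoderm. Most of that difference lay in HAND1, at 14.4 CPM anteriorly and 2.34 CPM posteriorly against 80.8 CPM in non-neural ectoderm. FOXC2 (11.8 CPM anteriorly and 6.27 CPM posteriorly against 2.15 CPM in non-neural ectoderm) and MEOX1 went the other way in both regions. SNAI2 (13.9 CPM posteriorly against 10.9 CPM in non-neural ectoderm), TCF21 and TWIST1 did so only posteriorly. The part of these cell types was not tested. Of 25 matrix partners 2 were higher (NID2 and VCAN) in each region, and 5 were lower anteriorly and 8 posteriorly. The 5 lower anteriorly are a larger share than the 7.22% of all measured genes that were lower there. Posteriorly 32.0% of the matrix partners were lower, where 8.48% of all measured genes were. The share of matrix partners that were higher lay near the share over all genes in each region. TGFBI stood at 65.1 CPM in the anterior and 53.2 CPM in the posterior region against 470 CPM in non-neural ectoderm, and FBN2 at 144 CPM anteriorly and 148 CPM posteriorly against 750.03 CPM in non-neural ectoderm. Collagen-processing genes gave 0 higher and 2 lower of 20 in each region, genes of matrix breakdown 0 higher and 1 lower of 10 in each, and adhesion complex genes 0 higher and 2 lower of 26 anteriorly and 1 higher and 3 lower of 26 posteriorly. The shares lower in these lists, between 7.69% and 11.5%, lay near the share over all genes.

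The anterior and the posterior preplacodal region had the smallest shares of called genes among the 7 comparisons. Of 42 measured members 0 were higher anteriorly, where 0.791% of 9856 genes were, and 1 was lower, where 0.700% were, and the median log2 ratio was 0.02 over the members and 0.00 over all genes. The lower one was COL1A2, at 22.2 CPM in the anterior and 68.9 CPM in the posterior region, 3.10-fold lower [2.96, 3.25]. Among members with 20 CPM or more on either side, COL5A1 came next without passing, at a log2 ratio of 0.59, then COL4A2 at 0.54, ITGA6 at 0.52 and COL4A1 at 0.50. Among the 4 further lists, the matrix glycoprotein gene TNR was higher anteriorly (12.5 CPM in the anterior against 2.81 CPM in the posterior region), 1 of 24 measured matrix partners. No gene was lower, and none was higher among 19 collagen-processing, 10 matrix breakdown and 25 adhesion complex genes.

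The neural plate was also set against the anterior pre-streak epiblast, an earlier tissue from the same laboratory. COL1A2, COL9A1, ITGA9, ITGA4 and COL11A1 led the members that were higher in the neural plate, and COL12A1 was lower. Of 42 measured members 21 were higher in the neural plate, where 14.8% of 9789 genes were, and 2 lower, where 4.75% were; the median log2 ratio was 0.95 over the members and 0.18 over all genes. The higher ones were 12 of 21 measured collagens, 2 of 5 laminins and 7 of 12 integrins. COL1A2 was 20.7-fold higher [19.9, 21.6], COL9A1 8.85-fold [7.17, 11.03], ITGA9 7.13-fold [5.83, 8.78], ITGA4 6.73-fold [6.44, 7.02], COL11A1 6.62-fold [5.96, 7.37], ITGA8 5.35-fold [4.39, 6.55] and ITGB8 4.78-fold [4.02, 5.73]. COL23A1, COL6A1, ITGB3, ITGA2, COL14A1, COL5A2, COL4A2, LAMC1, COL24A1, COL4A6, COL4A5, ITGA6, LAMA5 and COL4A1 were between 3.43-fold and 2.02-fold higher. With TMM or DESeq2 scaling, which take 0.14 (TMM) and 0.17 (DESeq2) off every log2 ratio of this pair, LAMA5 (0.97 with TMM, 0.95 with DESeq2) and COL4A1 (0.87 with TMM, 0.85 with DESeq2) no longer passed, nor did ITGA6 with DESeq2 (0.99). In FPKM with a pseudocount of 0.1, COL4A6 (0.97), COL4A5 (0.92), COL24A1 (0.90), LAMA5 (0.87) and COL4A1 (0.73) did not pass. With a pseudocount of 1 more calls were lost, among them ITGA9 (0.98), ITGA8 (0.77), COL14A1 (0.57) and COL12A1 (-0.70). COL12A1 was 2.97-fold lower [2.69, 3.28]. Of 22 matrix partners 10 were higher (FREM2, FBLN1, VCAN and FBN3 among them) and TNC and TGFBI were lower (median log2 ratio 0.86). That is 45.5% higher and 9.09% lower, where 14.8% of all measured genes were higher and 4.75% lower. Collagen-processing genes gave 2 higher and 1 lower of 20, matrix breakdown genes 0 and 0 of 8 and adhesion complex genes 3 higher and 2 lower of 23. Node and notochord markers summed to 42.9 CPM in the neural plate and 255 CPM in the anterior pre-streak epiblast. Mesoderm and mesenchyme markers summed to 20.5 CPM in the neural plate and 186 CPM in the anterior pre-streak epiblast. That difference lay in TBX6, at 0.246 CPM in the neural plate and 174 CPM in the anterior pre-streak epiblast. Besides TBX6, only HAND1 (0.191 CPM in the neural plate and 1.13 CPM in the anterior pre-streak epiblast) went this way. SNAI2 (12.7 CPM in the neural plate and 7.70 CPM in the anterior pre-streak epiblast), PDGFRA, MEOX1, PRRX1 and FOXC2 were among those that went the other way. The part of both marker lists was not tested.

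The pairs of grafted over ungrafted area opaca, anterior over central pre-streak epiblast and neural plate over non-neural ectoderm share no library. Of the 31 members measured in all 3 pairs, COL1A2 and COL9A2 were higher in each (6.45% of the 31, against 1.89% of the 8741 genes measured in all 3), and LAMB3 and COL9A1 lower in each (6.45% against 2.79%). These 4 are 4 of the 9 members called in the grafted pair, of the 16 in the pre-streak pair and of the 19 in the HH6/7 pair. ITGB3, higher on the grafted side and lower anteriorly, and COL8A2, lower on the grafted side and higher anteriorly, had opposite calls (6.45% against 0.847%).

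Among the rows that share only a name, ITGB1BP3 had the most counts, at 1125 CPM in the anterior and 1434 CPM in the central pre-streak epiblast, at 829.6 CPM in node-grafted and 914 CPM in ungrafted area opaca and at 587 to 788 CPM at HH6/7. ITGB3BP was higher in node-grafted than in ungrafted area opaca (39.8 CPM grafted against 18.9 CPM ungrafted, 2.10-fold [1.81, 2.44]). COL4A3BP was lower in the anterior than in the central pre-streak epiblast (7.39 CPM in the anterior against 15.4 CPM in the central one) and in the neural plate than in non-neural ectoderm (11.01 CPM in the neural plate against 25.1 CPM in non-neural ectoderm). ITGB1BP1 stayed between 8.67 and 17.3 CPM.

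The remaining members were rare. COL8A1, COL10A1, COL15A1, COL28A1, LAMA4, ITGA2B, ITGB6 and ITGB1BP2 stayed under 1 CPM in all 8 libraries, with 0.851 CPM as their highest value. Another 12 members, 8 collagens and 4 laminins, reached between 1 and 5 CPM: COL3A1, COL4A4, COL6A2, COL13A1, COL17A1, COL19A1, COL21A1, COL25A1, LAMA2, LAMA3, LAMB4 and LAMC3. All these members fell short of the 5 CPM of the rule, so no difference of theirs could be called, however many counts it rested on.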

How the data were processed

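Per the labels' protocols, total RNA of dissected chick tissue was made into TruSeq libraries. TopHat2 and galGal4 are the tool and build listed, per the submitters' processing notes. How reads were counted (program, annotation, strand) is not given in the sources used here, so overlapping neighbours such as COL4A1 and COL4A2 may share reads. The deposited table holds raw counts for 17329 genes, and the authors' second table FPKM for 17327. Columns were assigned by tissue or library codes in their names. All 69 members carry Ensembl identifiers; among Ensembl genes each FPKM column followed its own library's counts best (r from 0.895 to 0.968 across 11670 genes). CPM used column totals, as the member rule states. Alternatives used TMM factors (edgeR 4.0.16), DESeq2 1.42.0 size factors (R 4.3.3), other minimums and ratios, an interval bound of 2 and FPKM with pseudocounts of 1 and 0.1. Neither tool's test was run. Intervals are Clopper-Pearson, conditional on the summed counts. Python 3.11.15, pandas 2.3.3, numpy 2.4.6, scipy 1.17.1 and matplotlib 3.10.9 were used. The 7 comparisons, 4 gene lists (116 genes), 6 marker lists (72 genes) and the members were chosen with earlier results of these data known. Named are members past the rule, members with 20 CPM in a compared library, and at most 6 called genes per list and comparison; all 8 values are given for the main members reaching 50 CPM or an 8-fold range. Symbols of 68 members matched the RefSeq gene table, used only for neighbours. The values of 1 member, which stays in the counts and sums, are not reported here.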

Additional observations from a re-analysis of the deposited data

How the results depend on the processing

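No paired analysis was possible because each group holds 1 library; for the same reason no replicate could be left out. Counts of called members follow as higher and lower together, against 9 (node-grafted over ungrafted area opaca), 16 (anterior over central pre-streak epiblast), 19 (neural plate over non-neural ectoderm), 12 (anterior preplacodal region over non-neural ectoderm), 13 (posterior preplacodal region, likewise), 1 (anterior over posterior preplacodal region) and 23 (neural plate over anterior pre-streak epiblast) as reported. With a minimum of 3 counts in place of 5 CPM they were 23, 28, 30, 21, 21, 6 and 36 in that order, and with a ratio of 4 they were 4, 5, 11, 2, 6, 0 and 7. A minimum of 1 CPM gave 18 for the grafted pair and 4 between the preplacodal regions, and a minimum of 20 CPM gave 11 for the neural plate over the anterior pre-streak epiblast. FPKM with a pseudocount of 1 gave 7 for the anterior and 7 for the posterior preplacodal region, each against non-neural ectoderm, and 8 for the neural plate over the anterior pre-streak epiblast. Unit and pseudocount change together there, and the cause was not tested. Shares over all genes were not worked out at these other settings. The counts therefore show how member calls move with the rule, not whether members move more than other genes. Other counts stayed within 1.5 times, including those without the 5 rows that share only a name, an alternative chosen after seeing the data. Of the ratios called, 90 still passed with TMM, 89 with DESeq2 size factors, 82 with FPKM and a pseudocount of 0.1 and 60 with a pseudocount of 1, while 3, 4, 11 and 33 did not, and none of them changed direction. Biological spread is unknown, and counting intervals do not cover it.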
